A study of Mus musculus with 8 samples.

Results

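The genes described here encode subunits of the respiratory chain that are transcribed in the nucleus. They were chosen by symbol: 44 listed genes, all of which had a row among the 10825 genes of the deposited count table. By name the list holds 22 genes of complex I, 3 of complex II, 8 of complex III, 10 of complex IV and the carrier cytochrome c (Cycs). The libraries were made from cells labelled as dendritic cells (DCs), the antigen-presenting cells of the immune system, taken from E0771 tumours, a mouse mammary carcinoma line, in mice of wild-type genotype. In 4 samples the mice had received DRQ, which the study's design names as a CD74 inhibitor, and in 4 samples they had received the buffer PBS. Both groups carried the same tumour, dosing started on day 10, and tumours were collected 3 weeks after the cancer cells were injected. Age, dose and route are not given in the sources used here, and nothing says whether the 4 samples of a group came from separate mice, so a p-value reflects only how these samples vary, and that variation may be technical.

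Oxidative phosphorylation passes electrons from NADH (through complex I) and from succinate (through complex II) to ubiquinone, then through complex III and cytochrome c to oxygen at complex IV. Complexes I, III and IV pump protons, and ATP synthase uses the resulting gradient to make ATP. Complexes I, III and IV mix subunits from the nuclear and the mitochondrial genome, whereas complex II is wholly nuclear and is also an enzyme of the citric acid cycle. In DCs, activation by microbial products is known to shift cells away from respiration and toward glycolysis.

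RNA was measured as 3′-end tags with a bulk form of MARS-seq, and values below are CPM, each count over its library's TMM-scaled total in the tested genes, unless stated otherwise. DRQ libraries held 438648 to 539381 counts and PBS libraries 361792 to 543892. The 44 genes took 1.03% to 1.37% of each library, or 4103 to 6715 counts. A gene with a count of 0 could still have been present at up to 5.52 CPM in the library with the most counts and 8.29 CPM in that with the fewest. Of 7 conventional DC markers 6 were counted in every library, as were all 12 markers of natural killer (NK) and cytotoxic cells and all 12 of T cells. The 12 NK markers summed to 12810 to 19130 unscaled CPM in DRQ and 16060 to 20190 in PBS, and the 7 conventional DC markers, among them Cd74 and class II antigen-presentation genes, to 10740 to 13340 in DRQ and 6045 to 9178 in PBS. The seventh, Zbtb46, a transcription factor that defines conventional DCs, had 12, 3, 1 and 4 counts in DRQ replicates 1 to 4. In PBS libraries it had 0 to 1. Most of the sum came from Cd74, H2-Aa, H2-Ab1 and H2-Eb1. Itgax, of the same list, had 68 to 118 counts in DRQ and 58 to 127 in PBS, and Flt3 17 to 28 and 5 to 23. The sums of every other marker list looked at, from T cells to tumour cells, overlapped between the groups. Single markers could still separate them. Of the genes listed for type 2 conventional DCs, Cd209a, Mgl2, Clec10a and Il1r2 had more counts in every DRQ library than in every PBS library. Mgl2 had 30 to 80 in DRQ and 2 to 14 in PBS, and Il1r2 101 to 146 and 32 to 67. Sirpa, Irf4 and Itgam overlapped in counts. So did Cd7, the most counted gene of that list, with 133 to 171 counts in DRQ and 132 to 278 in PBS. T and NK cells also express Cd7, so it is not particular to these DCs. The list summed to 731 to 1077 unscaled CPM in DRQ and 674.5 to 882.5 in PBS, and this overlap depends on Cd7. The values below are therefore those of a cell mixture, in which fewer cells of a type and less RNA per cell cannot be told apart.

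Promoter sequences are shown for the pair of complex II genes that had one and for the 3 genes with the most matches to a motif of NRF1, a transcription factor known to bind promoters of many respiratory chain genes. Windows of 250 bases before to 50 bases after the gene start came from RefSeq on build GRCm38.p6 and were matched by symbol for 36 of the 44 genes. Both strands were searched for the NRF1 core GCGCNTGCG, the core CCGGAAG of ETS factors such as GABPA, the SP1 core GGGCGG and the YY1 core ATGGCGG. Capitals mark NRF1, ETS and YY1 matches on either strand, and SP1 matches are left in lower case. Sdhb lies at chr4:140961021-140961320, plus strand, Sdhd at chr9:50603800-50604099, minus strand, Ndufb4 at chr16:37654319-37654618, minus strand, Uqcrc1 at chr9:108936398-108936697, plus strand, and Cox6a1 at chr5:115348909-115349208, minus strand; each sequence runs 5′ to 3′ on the gene's own strand.
Sdhb: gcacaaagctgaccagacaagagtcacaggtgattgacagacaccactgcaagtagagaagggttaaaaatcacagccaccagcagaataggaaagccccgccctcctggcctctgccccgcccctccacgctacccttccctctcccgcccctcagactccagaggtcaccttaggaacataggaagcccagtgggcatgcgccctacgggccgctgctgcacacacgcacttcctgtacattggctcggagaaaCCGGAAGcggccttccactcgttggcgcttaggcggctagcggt
Sdhd: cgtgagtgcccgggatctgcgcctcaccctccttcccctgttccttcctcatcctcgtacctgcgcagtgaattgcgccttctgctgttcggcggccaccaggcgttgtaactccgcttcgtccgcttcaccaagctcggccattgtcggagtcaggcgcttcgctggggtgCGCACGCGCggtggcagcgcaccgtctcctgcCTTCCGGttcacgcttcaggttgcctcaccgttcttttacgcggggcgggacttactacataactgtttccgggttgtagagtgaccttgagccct
Ndufb4: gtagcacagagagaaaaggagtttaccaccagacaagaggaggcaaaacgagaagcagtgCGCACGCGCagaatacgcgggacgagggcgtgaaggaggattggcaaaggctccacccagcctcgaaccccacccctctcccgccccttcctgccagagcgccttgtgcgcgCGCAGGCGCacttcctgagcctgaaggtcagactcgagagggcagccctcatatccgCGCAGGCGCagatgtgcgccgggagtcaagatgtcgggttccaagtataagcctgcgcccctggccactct
Uqcrc1: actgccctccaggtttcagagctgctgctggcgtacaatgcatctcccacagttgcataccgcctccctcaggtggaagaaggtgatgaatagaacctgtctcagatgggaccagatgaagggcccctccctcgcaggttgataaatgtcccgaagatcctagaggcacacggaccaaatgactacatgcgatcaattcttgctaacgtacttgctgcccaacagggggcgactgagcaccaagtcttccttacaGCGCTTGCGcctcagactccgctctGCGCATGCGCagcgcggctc
Cox6a1: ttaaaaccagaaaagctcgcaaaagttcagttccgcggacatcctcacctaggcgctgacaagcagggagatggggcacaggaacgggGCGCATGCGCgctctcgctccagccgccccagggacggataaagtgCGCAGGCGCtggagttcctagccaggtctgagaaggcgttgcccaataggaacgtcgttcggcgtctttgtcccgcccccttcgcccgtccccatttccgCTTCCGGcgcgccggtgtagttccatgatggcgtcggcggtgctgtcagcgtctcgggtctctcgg

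The NRF1 core was in the window of 13 of the 36 genes (36.1%), against 7.12% of 27025 genes with a window and 16.3% of the 7782 of these that had a row in the count table. It stood 3 times each in the windows of Ndufb4, Uqcrc1 and Cox6a1, where overlapping matches on opposite strands count separately, and once in that of Sdhd. The ETS core was in 9 windows (25% of the 36, against 9.93% of all genes and 22.5% of genes in the table), including both complex II windows. The YY1 core was in 6 (16.7%, against 4.69% and 10.3%), and the SP1 core in 15 (41.7%, against 38.2% and 70.3%). The windows of the 36 genes had a median GC content of 58.7%, against 52.7% for all windows, and a match is a run of letters, not a measured site. Of the factors themselves, Nrf1 averaged 37.9 ± 19.5 CPM in DRQ and 58.2 ± 28.5 CPM in PBS, and Gabpa 34.4 ± 12.4 CPM in DRQ and 26.8 ± 18.0 CPM in PBS (SD, n = 4 each). Their estimates were -0.60 ± 0.41 and 0.33 ± 0.45 on the log2 scale and neither passed (adjusted p = 0.802 for Nrf1 and 0.926 for Gabpa, edgeR).

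The comparison of DRQ with PBS asks whether the CD74 inhibitor changed respiratory chain transcripts in tumour DCs. The 3 genes of complex II all had lower estimates in DRQ, the genes of complex IV were split evenly in sign, and no single gene passed the test. Of the 44 genes 43 were tested with edgeR's quasi-likelihood test, fitted on 6156 genes, and Uqcrb was below its filter on low counts. The number with adjusted p under 0.05 was 0 in either direction, against 0.0325% of all tested genes called higher and 0% called lower. Before adjustment, at p under 0.05, there were 0 higher (3.98% of all tested genes) and 1 lower (3.28%). That gene was Sdhb. In 0 of the 43 did all DRQ libraries lie above all PBS libraries (2.14% of all tested genes) or below them (2.18%). Estimates were above 0 for 14 genes and below 0 for 29, with a median of -0.06 on the log2 scale, DRQ over PBS, while 51.6% of all tested genes were below 0 and their median was -0.01. Without DRQ replicate 1 the count below 0 was 22, without PBS replicate 3 it was 19, and without PBS replicate 4 it was 24.

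**Figure D1:**
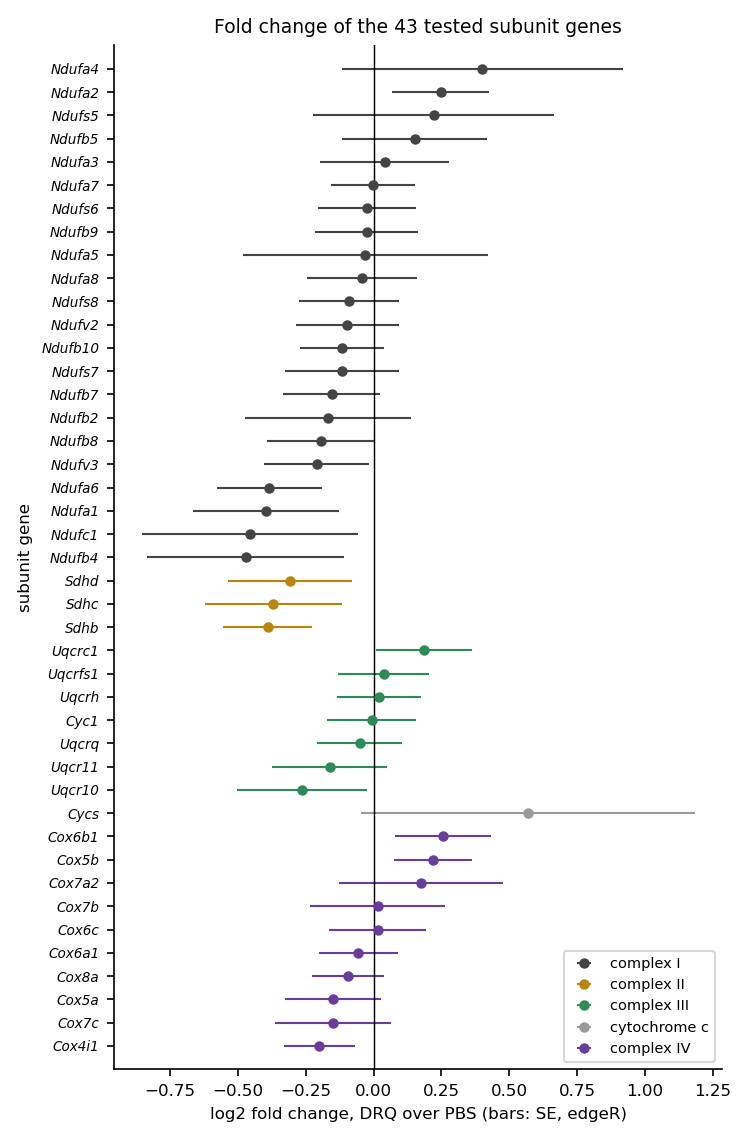
Log2 fold change, DRQ over PBS, of the 43 tested subunit genes (horizontal axis), grouped by complex and sorted within it; points are edgeR estimates and bars are standard errors. All 3 complex II genes lie between -0.39 and -0.31, while complex I spans -0.47 to 0.40 and complex IV -0.20 to 0.26.

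Complex II, or succinate dehydrogenase, oxidises succinate to fumarate and hands the electrons to ubiquinone. Sdhb encodes its iron-sulfur subunit and was the most counted of the 3 genes. It had 265, 370.2, 361 and 329 CPM in DRQ replicates 1 to 4, against 407, 458, 526 and 349 CPM in PBS replicates 1 to 4. The lowest DRQ library was replicate 1, and DRQ replicates 2 and 3 lay above PBS replicate 4, so the groups overlapped. Means were 331 ± 47.4 CPM in DRQ and 435 ± 75.3 CPM in PBS (SD, n = 4 each), a log2 fold change of -0.39 ± 0.16 (SE) with unadjusted p = 0.0234 and adjusted p = 0.586 by edgeR. The estimate was -0.29 without DRQ replicate 1 and -0.29 without PBS replicate 3, and in both of these fits its unadjusted p was over 0.05.

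Sdhc and Sdhd encode the membrane anchors that bind ubiquinone and a haem. Sdhc had 69.3, 61.02, 72.6 and 104 CPM in DRQ replicates 1 to 4, against 105, 104, 90.1 and 98.1 CPM in PBS replicates 1 to 4. DRQ replicates 1 to 3 were below all PBS libraries, and DRQ replicate 4 lay among them. Sdhd had 102, 81.4, 119 and 118 CPM in DRQ replicates 1 to 4, against 149, 129, 96.1 and 142 CPM in PBS replicates 1 to 4. Here PBS replicate 3 was low, below 3 of the 4 DRQ libraries. The log2 fold changes were -0.37 ± 0.25 for Sdhc and -0.31 ± 0.23 for Sdhd (SE), with adjusted p = 0.802 and 0.828 by edgeR.

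In each library the 3 genes of complex II were averaged on the log2 CPM scale (prior count 2). These means were 7.006, 7.003, 7.242 and 7.361 in DRQ replicates 1 to 4, against 7.574, 7.559, 7.423 and 7.447 in PBS replicates 1 to 4. All 4 DRQ libraries lay below all 4 PBS libraries, in that the highest DRQ library (replicate 4) was under the lowest PBS library (replicate 3). Of the other lists averaged in this way, assembly factors separated the groups in the same direction. The group means of complex II were 7.15 ± 0.18 in DRQ and 7.50 ± 0.08 in PBS (SD, n = 4 each), a difference of -0.35 that ranged from -0.42 to -0.29 when single libraries were left out. Scaled by library totals alone the difference was -0.33 and the groups overlapped. As summed counts complex II had 214, 252, 228 and 285 in DRQ replicates 1 to 4 and 346, 246, 237 and 228 in PBS replicates 1 to 4, or 489.8 ± 44.8 unscaled CPM in DRQ and 625.7 ± 60.4 in PBS (SD, n = 4 each). This mean over 3 genes is given as a description and was not tested. The summed conventional DC markers, mostly Cd74 and class II genes, were higher in all DRQ libraries than in all PBS libraries. This sum thus also separated the groups, and its part in the complex II difference was not tested.

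**Figure D2:**
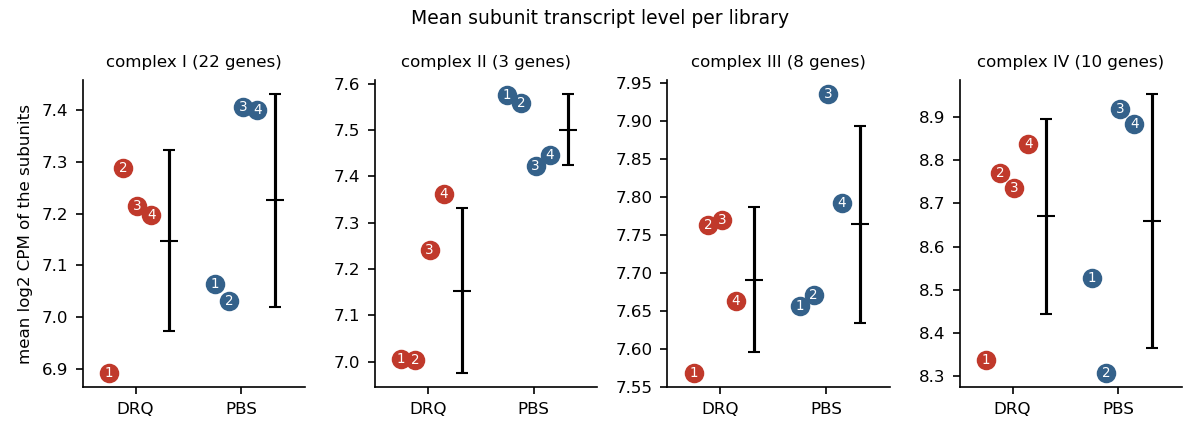
Mean log2 CPM over the subunit genes of each complex (vertical axis, own scale per panel) in every library; numbers in the points are replicates, and bars give the group mean and SD (n = 4). The groups are apart in complex II, with DRQ at 7.003 to 7.361 and PBS at 7.423 to 7.574, and overlap in complexes I, III and IV, where DRQ replicate 1 is the lowest DRQ library.

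Of the 22 genes listed by name under complex I, the NADH dehydrogenase, 3 encode core subunits that carry iron-sulfur clusters (Ndufs7, Ndufs8 and Ndufv2). The others encode accessory subunits, except Ndufa4, which has since been assigned to complex IV. Library means over the 22 genes were 6.89, 7.29, 7.22 and 7.20 log2 CPM in DRQ replicates 1 to 4, against 7.06, 7.03, 7.41 and 7.40 in PBS replicates 1 to 4. The spread within each group was wider than the difference of -0.08 between the group means, and the groups overlapped. Of the 22 genes 5 had estimates above 0 and 17 below 0, with a median of -0.09 and adjusted p from 0.691 to 0.999 by edgeR. Ndufb7, an accessory subunit on the intermembrane side, was the most counted. It had 453, 547, 433 and 373 CPM in DRQ replicates 1 to 4, against 432, 359, 727 and 498 CPM in PBS replicates 1 to 4. PBS replicate 3 stood highest, and the other 7 libraries overlapped.

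The lower estimates with the smallest p in complex I were those of Ndufa6, Ndufa1 and Ndufb4. Ndufa6, an accessory subunit of the LYR family that binds the mitochondrial acyl carrier protein, had 165, 171, 273 and 253 CPM in DRQ replicates 1 to 4, against 304, 211, 318 and 289 CPM in PBS replicates 1 to 4. DRQ replicates 1 and 2 were below all PBS libraries, while DRQ replicates 3 and 4 were inside the PBS range. Ndufa1, a small membrane-spanning subunit needed for assembly, had 145, 161, 75.01 and 170.1 CPM in DRQ replicates 1 to 4, against 118, 132, 282 and 204 CPM in PBS replicates 1 to 4. DRQ replicate 3 was the lowest and PBS replicate 3 the highest library. Ndufb4, an accessory subunit of the membrane arm, had 38.8, 54.9, 50.8 and 25.1 CPM in DRQ replicates 1 to 4, against 34.4, 42.1, 78.1 and 82.6 CPM in PBS replicates 1 to 4. PBS replicates 3 and 4 stood above the rest. The log2 fold change was -0.38 ± 0.19 for Ndufa6 (SE, adjusted p = 0.691 by edgeR), -0.40 ± 0.27 for Ndufa1 (adjusted p = 0.802) and -0.47 ± 0.36 for Ndufb4 (adjusted p = 0.832). Single libraries moved these estimates: Ndufa1 was at -0.12 with PBS replicate 3 left out and at -0.195 with DRQ replicate 3 left out. Ndufb4 was at -0.26 with PBS replicate 4 left out, at -0.28 when this was DRQ replicate 4 and at -0.31 when it was PBS replicate 3. Ndufa6 ranged from -0.51 to -0.27 over the libraries left out.

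The higher estimates with the smallest p were those of Ndufa2, Ndufa4 and Ndufb5. Ndufa2, an accessory subunit with a thioredoxin-like fold, had 332, 480.0, 419 and 369 CPM in DRQ replicates 1 to 4, against 264, 269.5, 366 and 452 CPM in PBS replicates 1 to 4. PBS replicates 1 and 2 were below all DRQ libraries and PBS replicate 4 was second highest of the 8. Ndufa4, named with complex I but since assigned to complex IV, had 8.16, 52.9, 31.5 and 21.3 CPM in DRQ replicates 1 to 4, against 7.64, 25.3, 27.03 and 28.4 CPM in PBS replicates 1 to 4. These rest on 4 to 26 counts per library, with replicate 1 low in both groups and DRQ replicate 2 high. Ndufb5, an accessory subunit of the membrane arm, had 63.2, 93.6, 102 and 94.7 CPM in DRQ replicates 1 to 4, against 95.5, 53.3, 78.1 and 87.8 CPM in PBS replicates 1 to 4. PBS replicate 2 and DRQ replicate 1 were the low libraries. By edgeR the log2 fold change was 0.25 ± 0.18 for Ndufa2 (SE, adjusted p = 0.818), 0.40 ± 0.52 for Ndufa4 (adjusted p = 0.919) and 0.15 ± 0.27 for Ndufb5 (adjusted p = 0.954). Without DRQ replicate 2 the estimate of Ndufa4 was -0.10. With single libraries left out Ndufa2 ranged from 0.14 (without PBS replicate 1) to 0.42 (without PBS replicate 4), and Ndufb5 from 0.0048 (without PBS replicate 2) to 0.29 (without DRQ replicate 1).

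Among the core subunits, Ndufs7, which holds the last iron-sulfur cluster before ubiquinone, had 99.9, 167, 162 and 162 CPM in DRQ replicates 1 to 4, against 143, 146, 180.2 and 173 CPM in PBS replicates 1 to 4. DRQ replicate 1 was far below the other 3 DRQ libraries, which lay inside the PBS range. Ndufs8 averaged 209 ± 15.98 CPM in DRQ and 222 ± 50.3 CPM in PBS, and Ndufv2 averaged 174 ± 25.95 CPM in DRQ and 186 ± 22.8 CPM in PBS (SD, n = 4 each). Neither differed by more than its spread. Ndufv3, an accessory subunit of the peripheral arm, had 222, 283, 319 and 361 CPM in DRQ replicates 1 to 4, against 285, 281, 511 and 302 CPM in PBS replicates 1 to 4. PBS replicate 3 was far above the other PBS libraries. The log2 fold change was -0.12 ± 0.21 for Ndufs7, -0.21 ± 0.19 for Ndufv3 and -0.15 ± 0.18 for Ndufb7 (SE, adjusted p = 0.954, 0.883 and 0.91 in the same order, edgeR). Without PBS replicate 3 it was 0.04 for Ndufv3 and 0.07 for Ndufb7, and without DRQ replicate 1 it was 0.04 for Ndufs7.

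Complex III, the cytochrome bc1 complex, moves electrons from ubiquinol to cytochrome c. Its library means were 7.57, 7.76, 7.77 and 7.66 log2 CPM in DRQ replicates 1 to 4, against 7.66, 7.67, 7.94 and 7.79 in PBS replicates 1 to 4, which overlapped at a difference of -0.07. Of the 7 tested genes 3 had estimates above 0 and 4 below 0. Uqcrc1, which encodes a core protein of the matrix side, had 279, 315, 293 and 216 CPM in DRQ replicates 1 to 4, against 189, 275, 240.3 and 268 CPM in PBS replicates 1 to 4. DRQ replicates 1 to 3 were above all PBS libraries, and DRQ replicate 4 was second lowest of the 8. Uqcrfs1, the Rieske iron-sulfur protein, had 261, 234, 254 and 207 CPM in DRQ replicates 1 to 4, against 241, 241, 231 and 217 CPM in PBS replicates 1 to 4, a narrow range in both groups. Cyc1, the cytochrome c1 subunit, averaged 296 ± 48.2 CPM in DRQ and 298 ± 20.4 CPM in PBS (SD, n = 4 each). The log2 fold change was 0.19 ± 0.18 for Uqcrc1 (SE, adjusted p = 0.887 by edgeR), 0.04 ± 0.17 for Uqcrfs1 (adjusted p = 0.984) and -0.01 ± 0.16 for Cyc1 (adjusted p = 0.998). Uqcrc1 was at 0.08 when PBS replicate 1 was left out and at 0.29 when DRQ replicate 4 was.

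The small subunits of complex III varied more. Uqcr10 had 173, 490.2, 431 and 329 CPM in DRQ replicates 1 to 4, against 399, 371, 409 and 527 CPM in PBS replicates 1 to 4. DRQ replicate 1 was the lowest of the 8 libraries, and DRQ replicates 2 and 3 were inside the PBS range. Uqcr11 had 124, 232, 138 and 201 CPM in DRQ replicates 1 to 4, against 197, 146, 222 and 214 CPM in PBS replicates 1 to 4. DRQ replicates 1 and 3 were low, as was PBS replicate 2. Uqcrq, a ubiquinone-binding subunit and the most counted of the complex, had 361, 370.2, 479 and 425 CPM in DRQ replicates 1 to 4, against 355, 441, 505 and 398 CPM in PBS replicates 1 to 4. Uqcrh, the hinge protein that contacts cytochrome c1, had 324, 366, 484 and 443 CPM in DRQ replicates 1 to 4, against 420.3, 382, 409 and 382 CPM in PBS replicates 1 to 4. For Uqcrq the PBS range enclosed the DRQ range, and for Uqcrh the DRQ range enclosed the PBS range. Log2 fold changes were -0.26 ± 0.24 for Uqcr10, -0.16 ± 0.21 for Uqcr11, -0.05 ± 0.16 for Uqcrq and 0.02 ± 0.15 for Uqcrh (SE), with adjusted p from 0.883 to 0.991 by edgeR. Without DRQ replicate 1 the estimate was -0.03 for Uqcr10 and -0.02 for Uqcr11, and without DRQ replicate 3 it was -0.06 for Uqcr11. Uqcrb had 4 to 10 counts per library, or 18.4, 12.2, 9.68 and 11.6 CPM in the DRQ libraries and 11.5, 11.2, 30.04 and 12.9 CPM in the PBS libraries, with PBS replicate 3 the high one.

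Cytochrome c (Cycs), the soluble carrier between complexes III and IV, was counted 8, 12, 10 and 13 times in DRQ replicates 1 to 4 and 3, 9, 11 and 0 times in PBS replicates 1 to 4. These counts correspond to 16.3, 24.4, 24.2 and 25.1 CPM in the DRQ libraries and 5.73, 25.3, 33.04 and 0 CPM in the PBS libraries. PBS replicates 1 and 4 were below all DRQ libraries and PBS replicates 2 and 3 above all of them. The log2 fold change was 0.57 ± 0.61 (SE, adjusted p = 0.905 by edgeR) and ranged from 0.15 without PBS replicate 4 to 1.18 without PBS replicate 3.

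Complex IV, cytochrome c oxidase, reduces oxygen to water. Its library means were 8.34, 8.77, 8.74 and 8.84 log2 CPM in DRQ replicates 1 to 4, against 8.53, 8.31, 8.92 and 8.88 in PBS replicates 1 to 4. DRQ replicate 1 and PBS replicate 2 were the lowest, and the difference of 0.01 between group means was far smaller than the SDs of 0.23 in DRQ and 0.30 in PBS (n = 4 each). Of the 10 genes 5 had estimates above 0 and 5 below 0, with adjusted p from 0.790 to 0.996 by edgeR. Without DRQ replicate 1 the difference of the means was 0.13, and without PBS replicate 2 it was -0.11.

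Cox4i1, which encodes a regulatory subunit that binds ATP, was the most counted of all 44 genes. It had 1218, 1717, 1401 and 1529 CPM in DRQ replicates 1 to 4, against 1425, 1572, 1986 and 1756 CPM in PBS replicates 1 to 4. PBS replicate 3 was highest and DRQ replicate 1 lowest, with the others intermixed. Means were 1466 ± 210.3 CPM in DRQ and 1685 ± 242 CPM in PBS (SD, n = 4 each), a log2 fold change of -0.20 ± 0.13 (SE) with adjusted p = 0.802 by edgeR. The estimate was -0.11 both when DRQ replicate 1 and when PBS replicate 3 was left out. Cox5a, a matrix-side subunit, had 182, 191, 220.2 and 216 CPM in DRQ replicates 1 to 4, against 225, 179.7, 222 and 268 CPM in PBS replicates 1 to 4. Cox7c, a small membrane-spanning subunit, had 192, 279, 300.1 and 289.9 CPM in DRQ replicates 1 to 4, against 256, 168, 387 and 367 CPM in PBS replicates 1 to 4. Both differed between groups by less than the SD of the PBS libraries, with PBS replicate 2 the lowest library in each. The log2 fold change was -0.15 ± 0.18 for Cox5a (SE, adjusted p = 0.91 by edgeR) and -0.15 ± 0.21 for Cox7c (adjusted p = 0.933). Cox5a was at -0.05 when PBS replicate 4 was left out. Cox7c was at -0.01 with DRQ replicate 1 left out, at -0.03 when this was PBS replicate 4 and at 0.01 when it was PBS replicate 3.

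Cox5b, a zinc-binding subunit, had 530.3, 643, 738 and 729 CPM in DRQ replicates 1 to 4, against 522, 536, 589 and 622 CPM in PBS replicates 1 to 4. DRQ replicates 2 to 4 were above all PBS libraries, and DRQ replicate 1 lay in their low range. Cox6b1, which lies between the monomers of the dimeric enzyme, had 475, 724, 513 and 535 CPM in DRQ replicates 1 to 4, against 426, 329, 639.8 and 493 CPM in PBS replicates 1 to 4. DRQ replicate 2 was highest and PBS replicate 2 lowest. Cox7a2, a subunit linked to respiratory supercomplexes, had 110.1, 207, 227 and 299.5 CPM in DRQ replicates 1 to 4, against 168, 95.5, 243 and 243 CPM in PBS replicates 1 to 4. DRQ replicate 1 and PBS replicate 2 were at about the same low level. By edgeR the log2 fold change was 0.22 ± 0.14 for Cox5b (SE, adjusted p = 0.79), 0.26 ± 0.18 for Cox6b1 (adjusted p = 0.802) and 0.18 ± 0.30 for Cox7a2 (adjusted p = 0.952). Without DRQ replicate 4 or PBS replicate 2 the estimate of Cox7a2 was below 0 (-0.04 in each). Cox6b1 was at 0.11 with DRQ replicate 2 left out, at 0.12 when this was PBS replicate 2 and at 0.44 when it was PBS replicate 3. Cox6a1 averaged 877 ± 107 CPM in DRQ and 914 ± 175 CPM in PBS, and Cox8a averaged 733 ± 69.7 CPM in DRQ and 782 ± 77.6 CPM in PBS (SD, n = 4 each). Cox6c averaged 288 ± 40.6 CPM in DRQ and 287 ± 69.5 CPM in PBS, and Cox7b averaged 110.2 ± 27.4 CPM in DRQ and 109 ± 25.4 CPM in PBS. None of these 4 had an estimate beyond its SE.

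**Figure D3:**
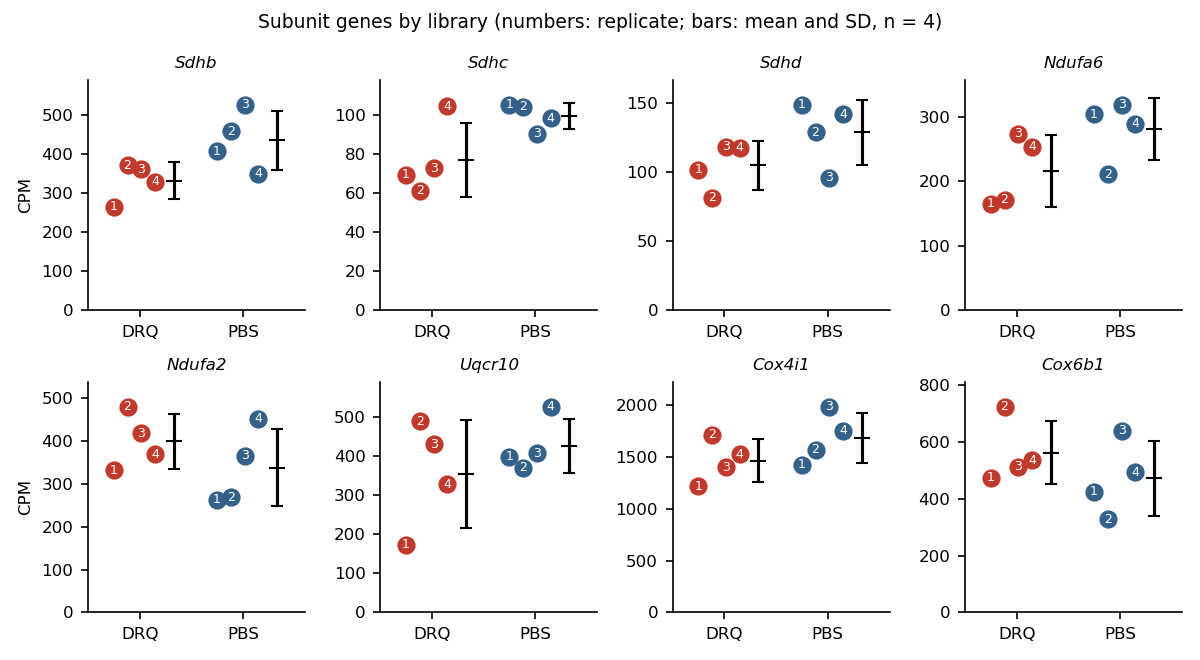
CPM of 8 subunit genes (vertical axis from 0, own scale per panel) in each DRQ and PBS library; numbers in the points are replicates and bars give mean and SD (n = 4). Groups overlap in every panel: Sdhb has DRQ at 265 to 370 and PBS at 349 to 526 CPM, and Uqcr10 has its lowest value, 173 CPM, in DRQ replicate 1.

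In complexes I, III and IV the SD of the library means within each group was larger than the difference between the groups. DRQ replicate 1 was below the 8-library mean of a gene in 37 of the 44 genes, against 47.8% of all tested genes. It was the lowest of the 4 DRQ libraries for 31 of the 44 (70.5%), against 25.1% of all tested genes. By complex this was so for 15 of 22 genes of complex I, 10 of 10 of complex IV and 4 of 8 of complex III. In complex II it was 1 of 3, and DRQ replicate 2 was the lowest for the others. Among PBS libraries replicate 3 was the highest for 22 of the 44 (26.8% of all tested genes), 7 of them in complex IV, and replicate 4 for 12. Replicate 2 was the lowest PBS library for 20 of the 44 (27% of all tested genes), also with 7 in complex IV. These counts describe genes of the same libraries, which are not independent of each other.

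All 4 complexes and the ribosomal protein lists were low in DRQ replicate 1, as deviations of the mean log2 CPM from the 8-library mean show. That library was at -0.30 for complex I, -0.32 for complex II (also -0.32 in DRQ replicate 2), -0.16 for complex III, -0.33 for complex IV, -0.22 for 18 ATP synthase subunits, -0.23 for mitochondrial ribosomal proteins and -0.29 for cytosolic ribosomal proteins. Enzymes of the citric acid cycle stood at 0.12 there. Complexes I, III and IV had PBS replicate 3 above their mean, at 0.22, 0.21 and 0.26, whereas complex II was at 0.10 there and had its highest library means in PBS replicates 1 and 2. PBS replicates 1 and 2 were thus the high PBS libraries in complex II and the low ones in complexes I, III and IV. In DRQ replicate 1 the NK markers also had their lowest summed level, 12810 unscaled CPM, against 15350 to 19130 in the other DRQ libraries. The genes of that list differed. Gzma had 1385 counts there, against 2231 to 3079 in the other DRQ libraries, and Ccl5 1293, against 1758 to 2545. Prf1, Ncr1 and Klre1 were also lowest there, and Klrb1c shared the lowest count. Eomes (118) and Klrk1 (143) had the most counts of the DRQ libraries, and Gzmb, Nkg7, Klrd1 and Tbx21 were in between. The conventional DC markers summed to 12640 unscaled CPM in DRQ replicate 1, within the range of that group. The 4 epithelial and tumour cell markers with a row summed to 30.2 unscaled CPM in DRQ replicate 1, against 121 to 150.2 in the other DRQ libraries. PBS replicate 2 was the lowest library of complex IV. There the 5 neutrophil markers with a row summed to 1545 unscaled CPM, against 162 to 393 in the other PBS libraries. Nearly all of this sum was Mmp9, with 547 counts in that library. S100a9, Retnlg, Ly6g and Csf3r had 1, 3, 2 and 6 counts there. The part of these markers in the low values was not tested.

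**Figure D4:**
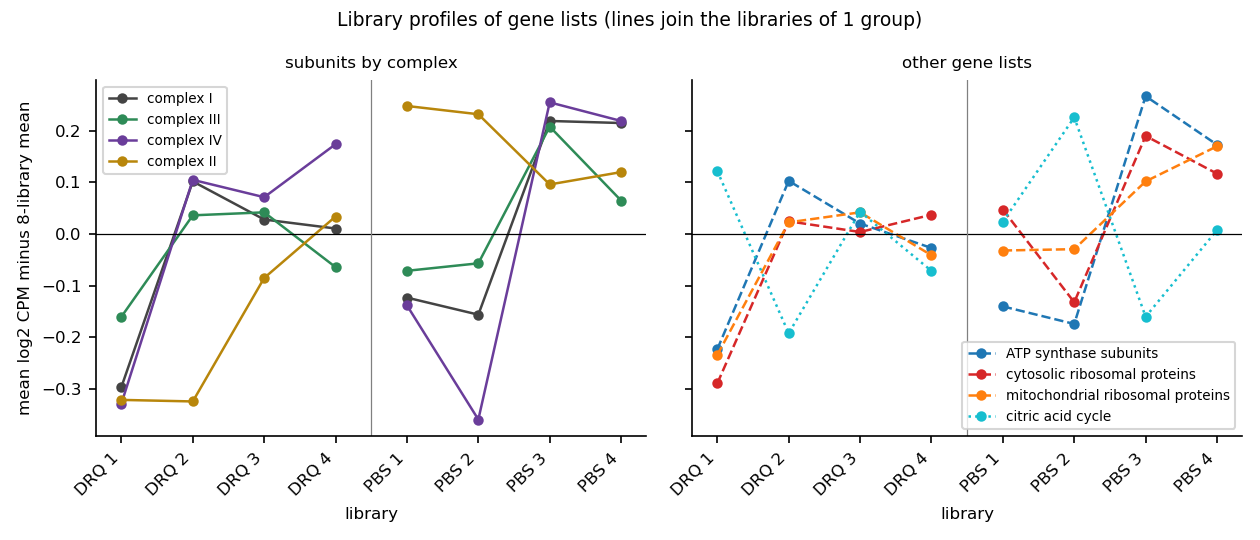
Mean log2 CPM of gene lists in each library, as the deviation from the list's 8-library mean (vertical axis); complexes are on the left and other lists on the right, and lines only join libraries of 1 group. Complexes I and IV are lowest among DRQ libraries in replicate 1 (-0.30 and -0.33) and high in PBS replicates 3 and 4, while complex II is below its mean in DRQ replicates 1 to 3 and above it in all PBS libraries.

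Short and long transcripts differed in DRQ replicate 1, more in complex III than in complex I. The 44 genes had a median transcript length of 645 bases in the GENCODE M21 annotation, against 2193 for all tested genes. The 33 genes of up to 1000 bases deviated by -0.31 on average in DRQ replicate 1, and the 11 longer ones by -0.15. In complex I, the 19 short genes averaged -0.305 and the 3 long ones -0.24, all 3 below their own mean. In complex III, the 5 short genes averaged -0.36 and the 3 long ones, Uqcrc1, Uqcrfs1 and Cyc1, 0.17. Outside the 44, 949 tested genes of up to 1000 bases averaged -0.16 and 5151 longer ones 0.03. PBS replicate 2 had the same order, with -0.22 for short and 0.09 for long subunit genes, and PBS replicate 3 was at 0.27 and 0.11. The boundary of 1000 bases was chosen after seeing the data, and the part of length, RNA quality or library preparation in these values was not tested.

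**Figure D5:**
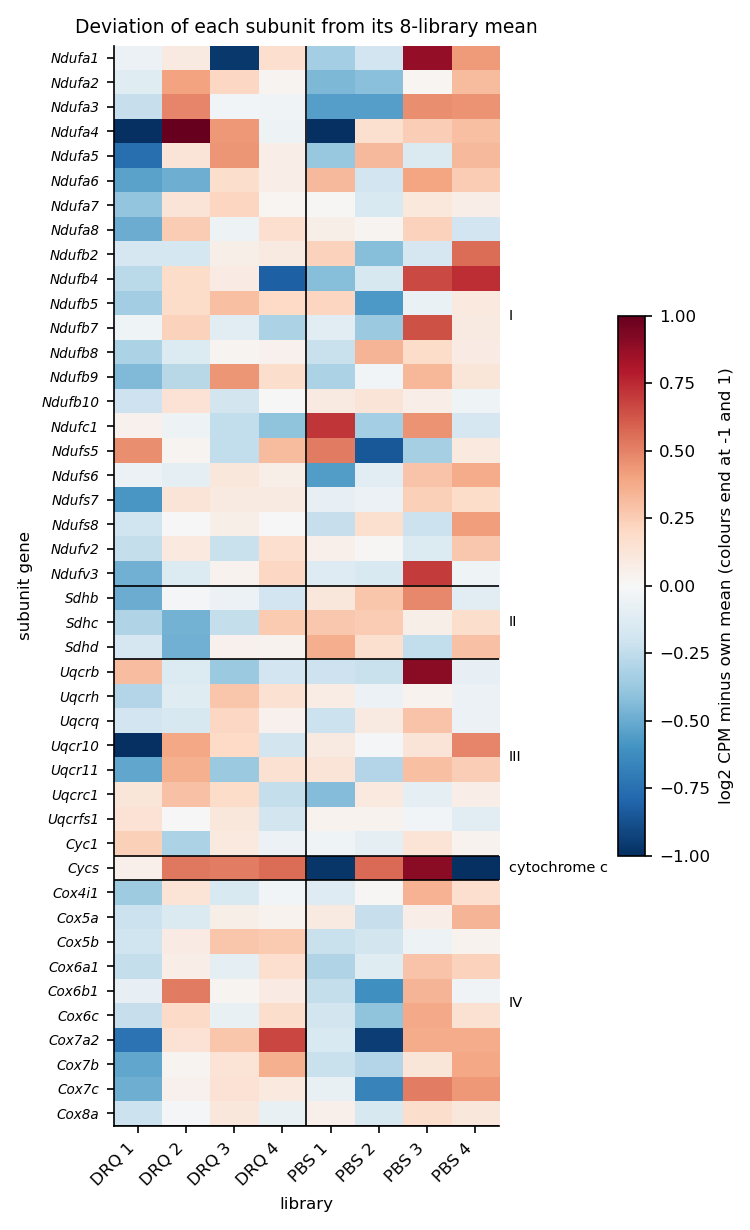
Deviation of each of the 44 genes (rows, grouped by complex) from its own 8-library mean log2 CPM, in DRQ and PBS libraries (columns); blue is below and red above the mean, with colours ending at -1 and 1. DRQ replicate 1 is blue in 37 of 44 rows, and the 7 exceptions are Ndufc1, Ndufs5, Uqcrb, Cycs and the 3 long genes of complex III, Uqcrc1, Uqcrfs1 and Cyc1.

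Spread within groups was also set against counting error, as a chi-square per degree of freedom over the 4 libraries of each group, where 1 is counting error alone. The median was 3.40 over the 44 genes, 6.61 in complex IV and 2.40 over all tested genes. Ndufa3, an accessory subunit of complex I, had the highest value at 16.7, followed by Uqcr10 at 15.3 and Cox4i1 at 14.4. Uqcrfs1 was at 0.73, so its libraries differed by no more than counting error. Of the 44 genes 12 share at least 95% of a stretch of at least 100 bases near the transcript end with another gene, so their reads may be split: Ndufb2, Ndufb8, Ndufs5, Ndufs6, Uqcrb, Uqcrh, Uqcr11, Cox5a, Cox5b, Cox6a1, Cox6c and Cox7c. For 6 of them a copy had its own row in the count table. Without the 12 the differences of library means were -0.10 for complex I, -0.04 for complex III and 0.03 for complex IV.

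Genes that work beside these subunits were likewise not called in either direction. Of 19 other subunits of complexes I to IV 5 had estimates above 0 and 14 below 0, with a median of -0.12. Ndufv1, the flavin-binding core subunit where NADH is oxidised, averaged 153.9 ± 22.4 CPM in DRQ and 193.6 ± 15.3 CPM in PBS (SD, n = 4 each), with all DRQ libraries below all PBS libraries and adjusted p = 0.746 by edgeR. Ndufb11 was at -0.31 ± 0.18 (SE, log2), Ndufb1 at 0.58 ± 0.34 and the complex III core protein gene Uqcrc2 at 0.44 ± 0.30, none past the test. Of 18 ATP synthase subunits 6 were above 0 and 12 below 0, with a median of -0.07. The rotor gene Atp5f1c averaged 330.8 ± 46.5 CPM in DRQ and 425.7 ± 49.6 CPM in PBS, and the catalytic Atp5f1b 958.6 ± 20.9 CPM in DRQ and 1128 ± 134 CPM in PBS (SD, n = 4 each). In both, all DRQ libraries lay below all PBS libraries, with adjusted p = 0.627 and 0.710 by edgeR. Groups were apart in this direction in 1 of the 19 other subunits and 2 of the 18 ATP synthase subunits. This compares with 2.18% of all tested genes, 2 of 65 mitochondrial ribosomal genes and 8 of 85 on the cytosolic ribosomal list. In the reverse direction these lists had 0 genes, against 2.14% of all tested genes. Atp5f1e was at 0.26 ± 0.14 and Atp5mj at 0.70 ± 0.48.

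The 6 mitochondrially encoded subunits with a row had estimates above 0 in 6 of 6, with a median of 0.57 on the log2 scale, opposite in sign to most nuclear subunits. The strongest by p was mt-Cytb, the cytochrome b of complex III, at 329.5 ± 95.3 CPM in DRQ and 223.0 ± 87.9 CPM in PBS (SD, n = 4 each), with adjusted p = 0.641 by edgeR, and mt-Nd1, a membrane subunit of complex I, was at 0.58 ± 0.33 (SE, log2). Their library means ranged from 7.50 to 8.41 log2 CPM in DRQ and from 6.69 to 8.50 in PBS, with PBS replicates 1 and 2 low, and the median chi-square per degree of freedom within groups was 20.6.

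Assembly factors, which insert cofactors and build the complexes, had 38 genes in the table, of which 23 were tested, 9 above 0 and 14 below 0 with a median of -0.13. The mean log2 CPM over the 38 was 4.92, 4.97, 4.96 and 5.01 in DRQ replicates 1 to 4, against 5.22, 5.12, 5.13 and 5.03 in PBS replicates 1 to 4. As in complex II, all DRQ libraries lay below all PBS libraries, here at a smaller difference of -0.16 and with DRQ replicate 4 and PBS replicate 4 nearly level. Cox18, which helps to insert a complex IV subunit into the inner membrane, was at 0.94 ± 0.49 and Pet100 at 0.34 ± 0.33, while Coa6 was at -0.64 ± 0.36 and Uqcc3 at -0.41 ± 0.24 (SE, log2). Of 15 genes of the citric acid cycle and pyruvate dehydrogenase, leaving out complex II, 6 were above 0 and 9 below 0, with a median of -0.09. Citrate synthase (Cs) was at -0.28 ± 0.24, the succinyl-CoA ligase subunit gene Suclg1 at -0.37 ± 0.22 and its partner Sucla2 at 0.36 ± 0.42. Suclg1, whose enzyme makes the succinate that complex II oxidises, averaged 128.5 ± 30.2 CPM in DRQ and 165.6 ± 22.2 CPM in PBS (SD, n = 4 each, adjusted p = 0.751 by edgeR).

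Of 5 tested regulators of mitochondrial biogenesis 3 were above 0 and 2 below 0; Esrra, a nuclear receptor, was at 0.28 ± 0.29 and Yy1 at -0.36 ± 0.36 (SE, log2). Mitochondrial ribosomal proteins, which translate the mitochondrially encoded subunits, had 20 of 65 tested genes above 0 and 45 below 0, with a median of -0.14. Among them Mrpl16 was at 0.80 ± 0.31, Mrpl27 at 0.64 ± 0.38, Mrpl3 at -0.78 ± 0.31 and Mrpl43 at -0.61 ± 0.27, with adjusted p from 0.531 to 0.751 by edgeR. Cytosolic ribosomal proteins were listed by the start of the symbol. This also took in genes such as Rps19bp1, Rpl7l1, Rpl10-ps3 and Rpl9-ps6, so not every gene listed encodes such a protein. The list had 10 of 85 tested genes above 0 and 75 below 0 with a median of -0.12. Among them Rpl10a was at -0.38 ± 0.13, Rpl3 at -0.30 ± 0.11, Rps15a at 0.45 ± 0.18 and Rps24 at 0.31 ± 0.19. All lists had 0 genes with adjusted p under 0.05. Of 3 tissue-restricted subunit isoforms with a row, 0 passed the filter on low counts.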

How the data were processed

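The 44 genes and the gene and marker lists were chosen with earlier results of these data known. Per the labels' protocols, RNA was harvested on magnetic beads and sequenced by a bulk adaptation of MARS-seq with a molecular identifier in the second read. The submitters' processing notes list the build GRCm39 and, with no role for each, STAR 2.7.3a, DESeq2 1.26.0, bcl2fastq 2.20.0.422, HTSeq, DESeq and cutadapt. The authors deposited a table of whole-number counts for 10825 Ensembl genes, all reaching 6 counts in some library. Collapsing of identifiers and use of strand in counting are not given in the sources used here. Floors therefore cover counting error only, and overlapping antisense genes cannot be told apart. The second deposited table holds a signal, each count over the size factor of its library: 100% of 86600 values equalled the count over the DESeq2 median-ratio factor within 0.011. It served only an alternative test. Symbols came from a mouse gene name table, matching 10788 of 10825 IDs.

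The test was edgeR's robust quasi-likelihood F test (edgeR 4.0.16, R 4.3.3, 2-sided) after TMM scaling. filterByExpr left 6156 genes with 94.9% of the counts, p was adjusted over them by Benjamini-Hochberg, and the threshold was 0.05. Fold changes are DRQ over PBS. The SE is the estimate over the square root of F. The common biological coefficient of variation was 0.235, and every pair of libraries differed by more than counting noise (2.73 to 4.66 times as much, as a chi-square per degree of freedom). The script was tested on simulated data. Complex means are averages of log2 CPM (prior count 2) and carry no test. Near-identical copies were sought with blastn 2.17.0 in the last 300 bases of GENCODE M21 transcripts, whose lengths are medians per gene.

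Genes named with every library's value were, in complexes I, III and IV, the 3 with the smallest unadjusted p in each direction and in complex II the 1, the most counted gene of each complex and Cycs, and those with 1 library far from its group. Those with adjusted p under 0.05 or groups apart would have been named too, and Sdhc and Sdhd were added after their values were seen. Of each other list up to 2 genes per direction were named. One gene that this rule takes is not reported here. Alternatives were RLE, upper-quartile and no scaling factors, DESeq2 1.42.0, limma-voom and limma 3.58.1 on log2(normalized + 1), other filters, a replicate block, each library left out, a prior count of 0.5, tested genes only and, chosen after seeing the data, leaving out genes with near-identical copies. Figures were drawn with matplotlib 3.10.9.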

Additional observations from a re-analysis of the deposited data

Results flagged for a closer look

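In 5 gene and group pairs 1 library lay far from the other 3, by Dixon's test of its gap over the range at the 95% level for 4 samples; chance flags about 1 in 20 such groups, and each of the 44 genes was looked at in both groups. In DRQ replicate 1, Ndufs7 was at 99.94 CPM with the other 3 DRQ libraries at 162.1 to 166.8, and Cycs at 16.32 CPM with the others at 24.2 to 25.12. In PBS replicate 1, Ndufa4 was at 7.641 CPM with the others at 25.27 to 28.4, on 4 counts. In PBS replicate 3, Ndufv3 was at 510.6 CPM with the others at 280.8 to 302.1, and Uqcrb at 30.04 CPM with the others at 11.23 to 12.91, on 10 counts.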

How the results depend on the processing

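Of the 44 genes 0 were called under every alternative run, as were 0 genes of the other respiratory chain and mitochondrial lists. Over all genes the count called was 2 in the main edgeR test, 7 with library totals only, 15 with DESeq2 (which gave an adjusted p to 3410 genes and to 37 of the 44), 1 with limma on the normalized table, 8 with no filter, 6 with the replicate block and 0 to 15 with single libraries left out; the cause was not tested. The labels do not say whether equal replicate numbers share an animal or day. Deviations of same-numbered libraries correlated at -0.0140 to 0.0805 over genes. For the other DRQ and PBS pairs this was -0.0796 to 0.0571, and correlations this weak cannot decide whether libraries were paired. The replicate block left 0 of the 44 called and 2 of them lower at an unadjusted p under 0.05 (edgeR).

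Of 391 alternative estimates for the 23 named and tested genes 376 kept their sign and 15 reversed, with a smallest adjusted p of 0.485. With single libraries left out the genes that reversed ranged from -0.1 to 0.718 (Ndufa4), -0.286 to 0.0738 (Ndufb7), -0.181 to 0.0413 (Ndufs7), -0.32 to 0.0387 (Ndufv3), -0.0715 to 0.12 (Uqcrh), -0.133 to 0.043 (Uqcrq), -0.00044 to 0.103 (Uqcrfs1), -0.0449 to 0.4 (Cox7a2) and -0.342 to 0.00739 (Cox7c). The reversal came without DRQ replicate 1 for Ndufs7, Uqcrq (0.0119) and Uqcrfs1; without DRQ replicate 2 for Ndufa4; without DRQ replicate 3 for Uqcrh; without DRQ replicate 4 for Cox7a2 and Uqcrh (-0.0267); without PBS replicate 2 for Cox7a2 (-0.04) and Uqcrh (-0.00492); without PBS replicate 4 for Uqcrh (-0.00285); and without PBS replicate 3 for Ndufb7, Ndufv3, Uqcrq and Cox7c. With limma-voom Uqcrh was at -0.00232.

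The estimates of Sdhb, Sdhc and Sdhd were below 0 in every alternative fit. The difference of complex means moved by less than the replicate SD under every alternative: with single libraries left out it was -0.146 to 0.0166 for complex I, -0.415 to -0.29 for complex II, -0.109 to -0.0126 for complex III and -0.111 to 0.131 for complex IV. Counts were low for Ndufa4 (4 to 26 per library), Cycs (0 to 13) and Uqcrb (4 to 10, not tested), so their values carry a large counting error.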
